A study of Mus musculus with 4 samples.

Results

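The Fanconi, homologous recombination and checkpoint genes are a set of 41 genes whose proteins find, process and signal DNA damage at replication forks. They were chosen by name with earlier results of these data known, and all 41 were among the 23763 genes in the deposited table. RNA from mouse spleen was sequenced in 4 libraries, 2 of wild-type (WT) and 2 of KLHL3 knock-in (KLHL3-KI) mice. Both groups were of strain C57BL/6J, and both are labelled as baseline, so no treatment separates them. KLHL3 is the substrate adaptor of a ubiquitin ligase. Neither the knock-in allele nor age or sex is stated in the sources used here. It is also not stated whether the libraries come from separate animals, so p-values measure only the spread between these libraries. The values are scaled read counts, that is, reads divided by 1 factor per library.

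In the Fanconi pathway a core complex of FANC proteins acts as a ubiquitin ligase and, with its partner enzyme UBE2T, marks the FANCD2-FANCI pair at DNA crosslinks that block replication. Homologous recombination then repairs the break from the sister chromatid: the MRE11-RAD50-NBN complex, CtIP (the product of Rbbp8) and EXO1 trim the ends, BRCA1, PALB2 and BRCA2 prepare the search for the matching strand, and BLM and the MUS81-EME1 nuclease resolve the joined molecules. ATM and ATR are the kinases that sense breaks and stalled forks and signal through CHEK2 and CHEK1. Many of these genes are transcribed mainly in dividing cells, where E2F factors act at their promoters. Mouse spleen keeps dividing red cell precursors as well as lymphocytes.

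The 4 libraries held 8535483 and 8975415 reads in WT against 9586677 and 10933023 in KLHL3-KI replicates 1 and 2, and the range for a member was from 16 reads (Rad51b, WT replicate 2) to 2028 (Topbp1, KLHL3-KI replicate 2). Klhl3 itself was at 3.02 and 4.67 in WT against 2.53 and 1.36 in KLHL3-KI spleen, which checks no label, since a knock-in need not change the level. The tissue label was checked on markers. The B cell genes Cd79a and Cd79b were between 199.6 and 418.8 in every library, and the T cell gene Cd3e was between 29.8 and 60.0. The pancreatic gene Prss2 had no read in WT and did not exceed 0.330 in KLHL3-KI spleen. Fewer cells of a type and less RNA per cell cannot be told apart in such bulk samples.

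The promoters were read from RefSeq (build GRCm38.p6), in windows from 250 bases before to 50 bases after a transcript start, and 33 of the 41 genes matched by symbol. Those with no entry were Exo1, Fancd2, Nbn, Rad50, Rad54b, Rbbp8, Tonsl and Xrcc2. An E2F site was spelled out as TTTGGCGC, TTTCCCGC, TTTGCCGC or TTTCGCGC on either strand. Such letters were found in 7 of the 33 genes (21.2%), against 2.6% of all 27025 genes with a window. They were in 6 of 20 member genes that rose and in 1 of 13 that did not pass the test described below. The 8 matches are shown because, of the 4 motifs searched, the share of genes with these letters differed from that of all genes by the largest ratio. Each stretch has 30 bases, 5′ to 3′ on the strand of its gene, with the match in capitals.
Clspn, plus strand, chr4:126556990-126557019: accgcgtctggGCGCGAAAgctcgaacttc
Bard1, minus strand, chr1:71103163-71103192: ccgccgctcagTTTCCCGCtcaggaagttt
Brca2, plus strand, chr5:150522442-150522471: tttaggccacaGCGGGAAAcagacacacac
Chek2, plus strand, chr5:110839820-110839849: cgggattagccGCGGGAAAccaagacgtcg
Topbp1, plus strand, chr9:103305187-103305216: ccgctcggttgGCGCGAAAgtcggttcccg
Rad51c, minus strand, first start, chr11:87404941-87404970: cccccgcgaggGCGGGAAAagcaaggggtc
Rad51c, minus strand, second start, chr11:87404477-87404506: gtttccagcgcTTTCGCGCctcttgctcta
Fancg, minus strand, chr4:43010335-43010364: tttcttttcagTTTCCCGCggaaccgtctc
The match of Clspn and that of the second Rad51c start lie after the start, at base 22 and base 12 of the transcript, and the others begin at base -209 (Bard1), -168 (Brca2), -152 (Chek2), -129 (Topbp1), -52 (Fancg) and -5 (Rad51c). The CCAAT box (CCAAT, either strand) was in 63.6% of the member genes and 41.1% of all genes, the GC box (GGGCGG) in 57.6% and 38.2%, and the CHR letters (TTTGAA or TTCGAA) in 12.1% and 21.7%. The CCAAT box was in 11 of 20 genes that rose and 10 of 13 that did not pass, and the GC box in 10 and 9. The median GC content was 58.8% in the 36 windows of member genes and 52.7% in all 32851, so GC-rich letters meet a richer background here. A match shows letters in a window and no bound factor.

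The comparison asked how these genes differed between KLHL3-KI and WT spleen. Of 41 genes 27 rose and 0 fell (limma on log2 of value + 1, Benjamini-Hochberg adjusted p under 0.05 over the 16970 genes whose mean value reached 1), where 15.2% of all genes tested rose and 7.56% fell. Brca1 rose most, from a mean of 23.5 ± 1.55 to 107 ± 15.4 (SD, n = 2 libraries), followed by Rad51ap1, Blm, Clspn and Fancd2. The kinases at the top of the signal, Atm and Atr, and most of the Fanconi core complex did not pass. At an unadjusted p under 0.05 there were 30 higher and 1 lower, the latter being Atm. The share of all genes at that threshold was not counted, here or for the lists below. With edgeR on the recovered reads 27 rose and 0 fell, against 14.9% of all genes rising there, and with DESeq2 21 rose and 0 fell, against 12.7%. The median log2 fold change of the 41 genes was 0.72, and that of all genes tested was -0.01. Both KLHL3-KI values lay above both WT values for 32 of the 41 genes (32.8% of all genes tested), and below for 2 (31.9%). All 41 passed the minimum level, and 20 of the 27 that rose passed under each of the 16 alternatives run.

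**Figure D1:**
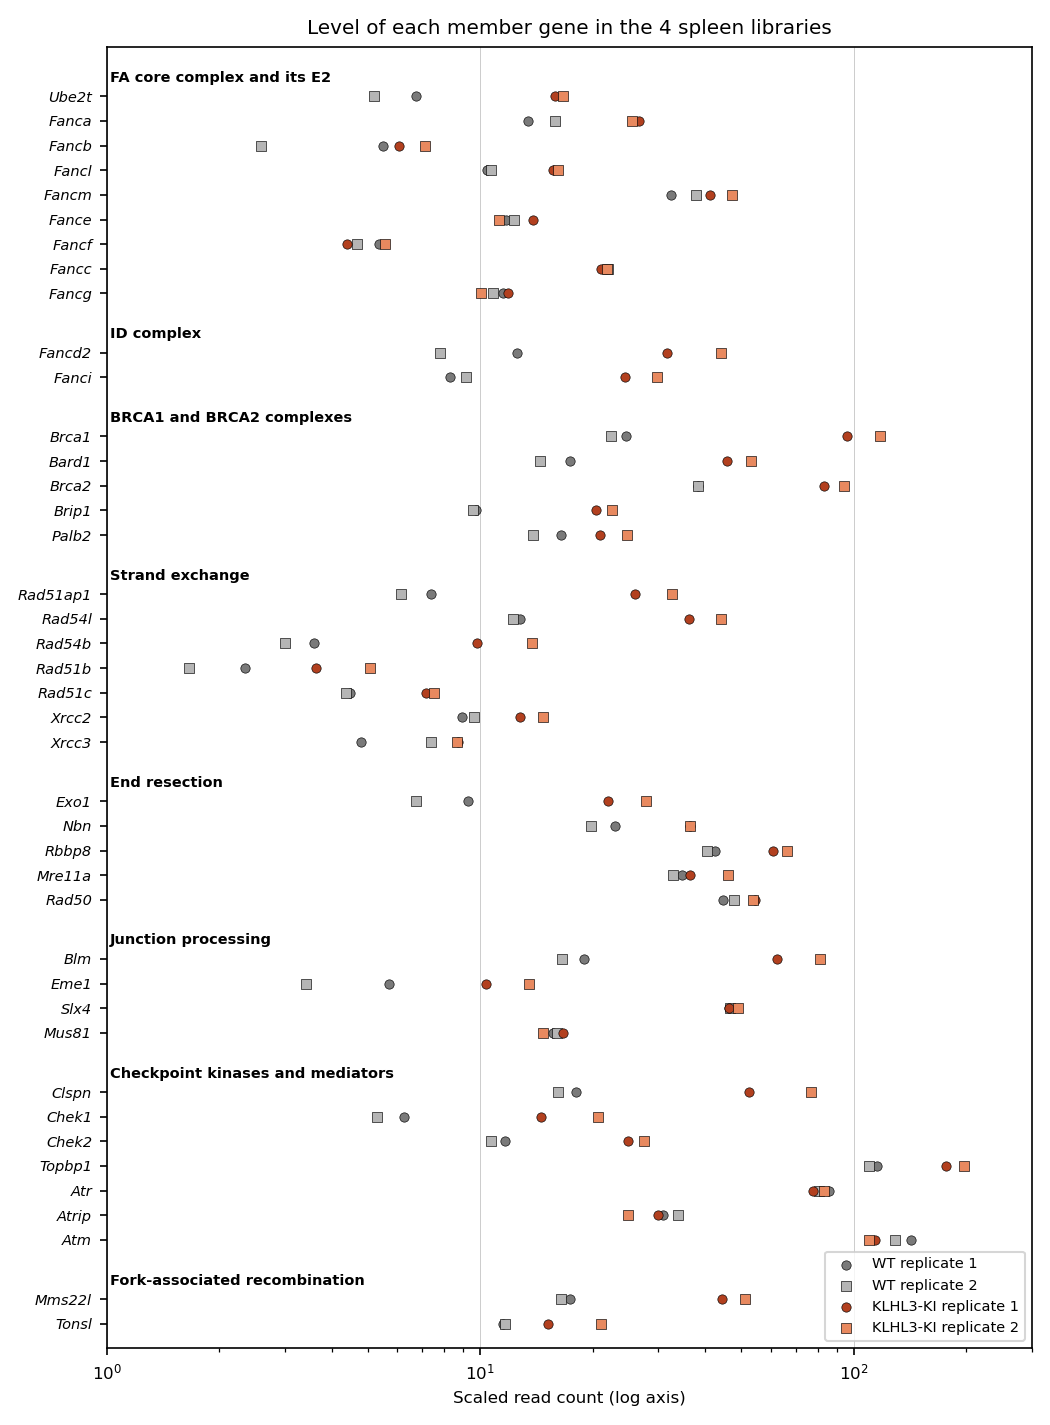
Scaled read count (log axis) of each of the 41 genes in the 4 libraries, grouped by role. Grey marks are WT and red marks KLHL3-KI, with circles for replicate 1 and squares for replicate 2. Brca1, Blm and Clspn have both red marks far to the right of both grey marks, while those of Fancc, Mus81, Slx4 and Atr overlap.

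Scaling bore on the size of these values. With equal total reads per library 21 genes rose and 2 fell, where 11.3% of all genes rose and 18.4% fell. After quantile normalization 24 rose and 1 fell (12.0% and 14.0% of all genes), and with haemoglobin, immunoglobulin and mitochondrial genes removed 24 rose and 1 fell (12.5% and 17.7%). The median of all genes was -0.16, -0.10 and -0.14 in these 3 settings, and that of the 41 genes was 0.56, 0.61 and 0.59.

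The Fanconi core complex split: of its 8 subunit genes and Ube2t, 3 rose and 6 did not pass. Ube2t, the enzyme that carries the ubiquitin to FANCD2, was at 6.71 and 5.19 in WT against 15.9 and 16.7 in KLHL3-KI libraries. Both KLHL3-KI values lay far above the higher WT value, and the log2 fold change was 1.32 (SE 0.17, limma adjusted p = 4.95e-04). Fanca, a scaffold subunit of the complex, was at 13.4 and 15.9 in WT against 26.5 and 25.5 in KLHL3-KI spleen, without overlap (log2 fold change 0.79, SE 0.14, limma adjusted p = 0.00284). Fancl, the catalytic ligase subunit, was at 10.4 and 10.7 in WT against 15.6 and 16.2 in KLHL3-KI spleen, a narrow spread within each group (log2 fold change 0.55, SE 0.14, limma adjusted p = 0.0210). The call of Fancl was lost without WT replicate 1 (0.104), WT replicate 2 (0.102) or KLHL3-KI replicate 2 (0.0786), each by limma, with equal total reads (0.0659), and with DESeq2 (0.147). In the annotation used here for gene names, 17.0% of the exon bases of Fancl are shared with Vrk2 and 8.62% of those of Fanca with Zfp276, on the opposite strand. The kit kept the strand, but whether the counting used it is not stated, so reads there cannot be assigned with certainty.

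The other core subunits did not pass. Fancc was at 21.704 and 22.004 in WT against 21.035 and 21.912 in KLHL3-KI spleen, with a 95% interval of the log2 fold change from -0.30 to 0.25. Fance was at 11.7 and 12.4 against 13.9 and 11.2 (interval -0.31 to 0.40). Fancg was at 11.5 and 10.8 against 11.9 and 10.03 (interval -0.38 to 0.33). The KLHL3-KI and WT values of these genes overlapped. Fancf, an adaptor within the complex, was at 5.37 and 4.67 against 4.41 and 5.55, with overlap and an interval from -0.46 to 0.43. The upper bounds of these 4 intervals lie between 0.25 and 0.43, so equal levels are not shown. Fancm, the DNA translocase that anchors the complex, was at 32.3 and 37.9 in WT against 41.2 and 47.1 in KLHL3-KI spleen. Its groups did not overlap, but the log2 fold change of 0.32 (SE 0.12) did not pass (limma adjusted p = 0.0935), except without KLHL3-KI replicate 1 (0.0429). Fancb, an X-linked subunit, was at 5.48 and 2.59 in WT against 6.06 and 7.11 in KLHL3-KI spleen. It missed the threshold (log2 fold change 0.65, SE 0.27, limma adjusted p = 0.122), and passed only without WT replicate 1 (0.0358).

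Both genes of the FANCD2-FANCI pair, the substrate of the core complex, rose. Fancd2 was at 12.5 and 7.78 in WT against 31.7 and 44.0 in KLHL3-KI libraries. The lower KLHL3-KI value lay far above the higher WT value, and the log2 fold change was 1.82 (SE 0.22, limma adjusted p = 3.27e-04). Fanci was at 8.28 and 9.13 in WT against 24.4 and 29.8 in KLHL3-KI spleen (log2 fold change 1.53, SE 0.15, limma adjusted p = 8.51e-05). Per kilobase of annotated exon, the mean levels were 1.84 for Fancd2 and 1.75 for Fanci in WT against 6.87 and 5.46 in KLHL3-KI spleen, similar between the partners in each group. The ratio of Fancd2 to Fanci in a library was 1.51 and 0.852 in WT against 1.297 and 1.477 in KLHL3-KI, with overlap. Of the exon bases of Fanci 13.4% are shared with Polg on the opposite strand, and of those of Fancd2 4.64% with Fancd2os.

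All 5 genes of the BRCA1 and BRCA2 complexes rose. Brca1, whose protein directs breaks to recombination, was at 24.6 and 22.4 in WT against 95.9 and 118 in KLHL3-KI libraries. The groups were far apart, 4.54-fold in the mean, and the log2 fold change was 2.13 (SE 0.12, limma adjusted p = 3.13e-06). Bard1, the obligate partner of BRCA1 in its RING ligase, was at 17.3 and 14.4 in WT against 45.7 and 52.98 in KLHL3-KI spleen (log2 fold change 1.58, SE 0.14). The ratio of Brca1 to Bard1 was 1.42 and 1.55 in WT against 2.10 and 2.22 in KLHL3-KI libraries, higher in both of the latter. Ratios between genes are given as a description and were not tested. Brca2, a mediator of strand exchange, was at 38.3 in both WT libraries and 83.4 and 94.1 in KLHL3-KI spleen, for a log2 fold change of 1.19 (SE 0.10). Brip1, a helicase bound by BRCA1, was at 9.73 and 9.55 in WT against 20.4 and 22.6 in KLHL3-KI spleen, for a log2 fold change of 1.08 (SE 0.14). Each of these 4 genes kept its call in every alternative. Palb2, which bridges BRCA1 and BRCA2, was at 16.4 and 13.8 in WT against 20.9 and 24.7 in KLHL3-KI spleen. Its log2 fold change, 0.56 (SE 0.15, limma adjusted p = 0.0232), was the smallest of the 5, and the call was lost without WT replicate 1 (0.0548), WT replicate 2 (0.177) or KLHL3-KI replicate 2 (0.112). It was also lost with DESeq2 (0.0818), equal total reads (0.0638), quantile normalization (0.0535) or no variance trend (0.0644).

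Among the genes of strand exchange 6 of 7 rose, and Rad51ap1, Rad54l and Rad54b had larger changes than Rad51b, Rad51c, Xrcc2 and Xrcc3, a difference that was not tested. Rad51ap1, which stimulates strand pairing, was at 7.38 and 6.12 in WT against 26.0 and 32.5 in KLHL3-KI libraries. This 4.33-fold rise, without overlap, was a log2 change of 1.96 (SE 0.16, limma adjusted p = 2.89e-05). Rad54l, a motor protein of strand exchange, was at 12.8 and 12.2 in WT against 36.2 and 44.1 in KLHL3-KI spleen (log2 fold change 1.60, SE 0.14). Rad54b, a related motor protein, was at 3.58 and 3.01 in WT against 9.80 and 13.7 in KLHL3-KI spleen (log2 fold change 1.56, SE 0.21). These 3 genes passed in every alternative. The value of Rad54l rests in part on exon bases shared with Lrrc41 on the opposite strand (4.12%), and that of Rad54b is uncertain because 39.1% of its exon bases are shared with Fsbp on the same strand.

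The products of Rad51b, Rad51c, Xrcc2 and Xrcc3 assemble into small complexes that assist strand exchange. Rad51b was at 2.35 and 1.66 in WT against 3.63 and 5.06 in KLHL3-KI spleen, Rad51c at 4.47 and 4.36 against 7.16 and 7.50, and Xrcc2 at 8.95 and 9.65 against 12.8 and 14.7. In each of these both KLHL3-KI values were the higher ones. The log2 fold changes were 0.83 (SE 0.24), 0.62 (SE 0.18) and 0.51 (SE 0.15), and the adjusted p values by limma were 0.0331, 0.0332 and 0.0404. Rad51b had 16 to 52 reads per library. The 3 calls did not hold without WT replicate 1 (0.0730, 0.116 and 0.173), WT replicate 2 (0.207, 0.146 and 0.130) or KLHL3-KI replicate 2 (0.167, 0.120 and 0.198). That of Rad51c was also lost without KLHL3-KI replicate 1 (0.0569). With DESeq2 they had adjusted p values of 0.188, 0.255 and 0.225, and with equal total reads the limma values were 0.0514, 0.0734 and 0.112. Of the 7 genes of strand exchange, 3 rose when WT replicate 1, WT replicate 2 or KLHL3-KI replicate 2 was left out. Xrcc3 was at 4.81 and 7.37 in WT against 8.70 and 8.67 in KLHL3-KI spleen, without overlap, and missed the threshold (log2 fold change 0.47, SE 0.21, limma adjusted p = 0.134).

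In end resection 3 of 5 genes rose, and 2 of the 3 genes of the MRE11-RAD50-NBN complex did not pass. Exo1 was at 9.29 and 6.75 in WT against 22.03 and 27.8 in KLHL3-KI libraries, a 3.11-fold rise (log2 fold change 1.53, SE 0.18, limma adjusted p = 3.08e-04). Rbbp8, which encodes the resection factor CtIP, was at 42.4 and 40.6 in WT against 60.7 and 66.2 in KLHL3-KI spleen (log2 fold change 0.60, SE 0.10). Nbn, whose protein links the complex with ATM, was at 22.9 and 19.8 in WT and 36.5 in both KLHL3-KI libraries (log2 fold change 0.75, SE 0.12). These 3 genes passed in every alternative. Rad50, the structural subunit, was at 44.5 and 47.7 in WT against 54.4 and 53.7 in KLHL3-KI spleen, and Mre11a, the nuclease, at 34.7 and 32.8 against 36.3 and 46.1. Neither group pair overlapped, and neither gene passed (limma adjusted p = 0.149 and 0.174), apart from Mre11a without KLHL3-KI replicate 1 (0.0291). The 95% intervals of their log2 fold changes were -0.01 to 0.45 and -0.03 to 0.57. The ratio of Nbn to Rad50 was 0.515 and 0.415 in WT against 0.670 and 0.681 in KLHL3-KI, while that of Mre11a to Rad50 was 0.779 and 0.687 in WT against 0.668 and 0.858 in KLHL3-KI libraries, with overlap.

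The genes that process joined DNA molecules split between partners of one enzyme. Blm, the helicase mutated in Bloom syndrome, was at 18.9 and 16.6 in WT against 62.1 and 81.4 in KLHL3-KI libraries. This 4.04-fold rise was among the 3 largest of the 41 genes (log2 fold change 1.95, SE 0.14, limma adjusted p = 1.41e-05). Eme1, the regulatory partner of the MUS81 nuclease, was at 5.71 and 3.43 in WT against 10.4 and 13.5 in KLHL3-KI spleen (log2 fold change 1.24, SE 0.23, limma adjusted p = 0.00450). This call was lost without WT replicate 2 (0.0537), and 9.04% of its exon bases are shared with Lrrc59 on the opposite strand. Mus81, the catalytic subunit, was at 15.7 and 16.1 in WT against 16.6 and 14.7 in KLHL3-KI spleen, with overlap and an interval of the log2 fold change from -0.33 to 0.29. The ratio of Eme1 to Mus81 thus went from 0.364 and 0.213 in WT to 0.623 and 0.921 in KLHL3-KI libraries. Slx4, the scaffold that holds such nucleases, was at 46.2 and 46.5 in WT against 46.5 and 49.1 in KLHL3-KI spleen. Its interval, -0.19 to 0.27, was among the narrowest, and its estimate of 0.04 turned to -0.12 with equal total reads, -0.11 after quantile normalization and -0.09 with abundant genes removed.

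Of the 7 checkpoint genes, Topbp1, Clspn, Chek1 and Chek2 rose, and Atm, Atr and Atrip did not pass. Atm, the kinase activated by breaks, was at 142 and 129 in WT against 114 and 109.95 in KLHL3-KI libraries. Both KLHL3-KI values were the lower ones, but the log2 fold change of -0.27 (SE 0.09) did not pass (limma adjusted p = 0.0679). It passed with equal total reads (-0.44, 0.00662), after quantile normalization (-0.41, 0.0156) and once abundant genes were removed (-0.41, 0.00584), where the median of all genes was itself below 0 as given above. Atr, the kinase activated at stalled forks, was at 85.8 and 80.5 in WT against 77.6 and 83.2 in KLHL3-KI spleen, with overlap and an interval from -0.27 to 0.17. Atrip, which brings ATR to single-stranded DNA, was at 30.9 and 33.9 in WT against 29.96 and 24.8 in KLHL3-KI spleen (log2 fold change -0.24, SE 0.13, limma adjusted p = 0.224). Among the alternatives it passed only with equal total reads (-0.40, 0.0490). The values of Atr overlapped between groups and those of Atrip did not.

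The other 4 checkpoint genes rose and kept their calls in every alternative. Topbp1, the activator of ATR, was the most abundant of the 4 per kilobase of exon (21.5 in WT and 35.8 in KLHL3-KI spleen). It was at 115 and 109.9 in WT against 176 and 198 in KLHL3-KI libraries (log2 fold change 0.72, SE 0.10, limma adjusted p = 6.11e-04). Clspn encodes claspin, which holds CHEK1 at ATR, and was at 18.0 and 16.2 in WT against 52.5 and 76.9 in KLHL3-KI spleen (log2 fold change 1.84, SE 0.17). Chek1 was at 6.27 and 5.29 in WT against 14.5 and 20.6 in KLHL3-KI spleen (log2 fold change 1.44, SE 0.19), and Chek2 at 11.6 and 10.7 against 24.9 and 27.5 (1.16, SE 0.14). In all 4 the groups were clear of each other, and KLHL3-KI replicate 2 was above replicate 1. The ratio of Chek1 to Atr went from 0.0730 and 0.0657 in WT to 0.187 and 0.248, and that of Chek2 to Atm from 0.0817 and 0.0831 to 0.219 and 0.2498.

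MMS22L and TONSL form a complex that supports recombination at replication forks. Mms22l was at 17.3 and 16.5 in WT against 44.4 and 51.1 in KLHL3-KI libraries, a 2.82-fold rise (log2 fold change 1.44, SE 0.12, limma adjusted p = 3.20e-05). Tonsl was at 11.5 and 11.6 in WT against 15.2 and 21.04 in KLHL3-KI spleen (log2 fold change 0.59, SE 0.17, limma adjusted p = 0.0355). The rise of Mms22l passed throughout, and that of Tonsl was lost without WT replicate 1 (0.154), WT replicate 2 (0.166) or KLHL3-KI replicate 2 (0.240), with DESeq2 (0.101), and by limma with equal total reads (0.0879), quantile normalization (0.0623), abundant genes removed (0.0588), no variance trend (0.0818) or no minimum level (0.0540).

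**Figure D2:**
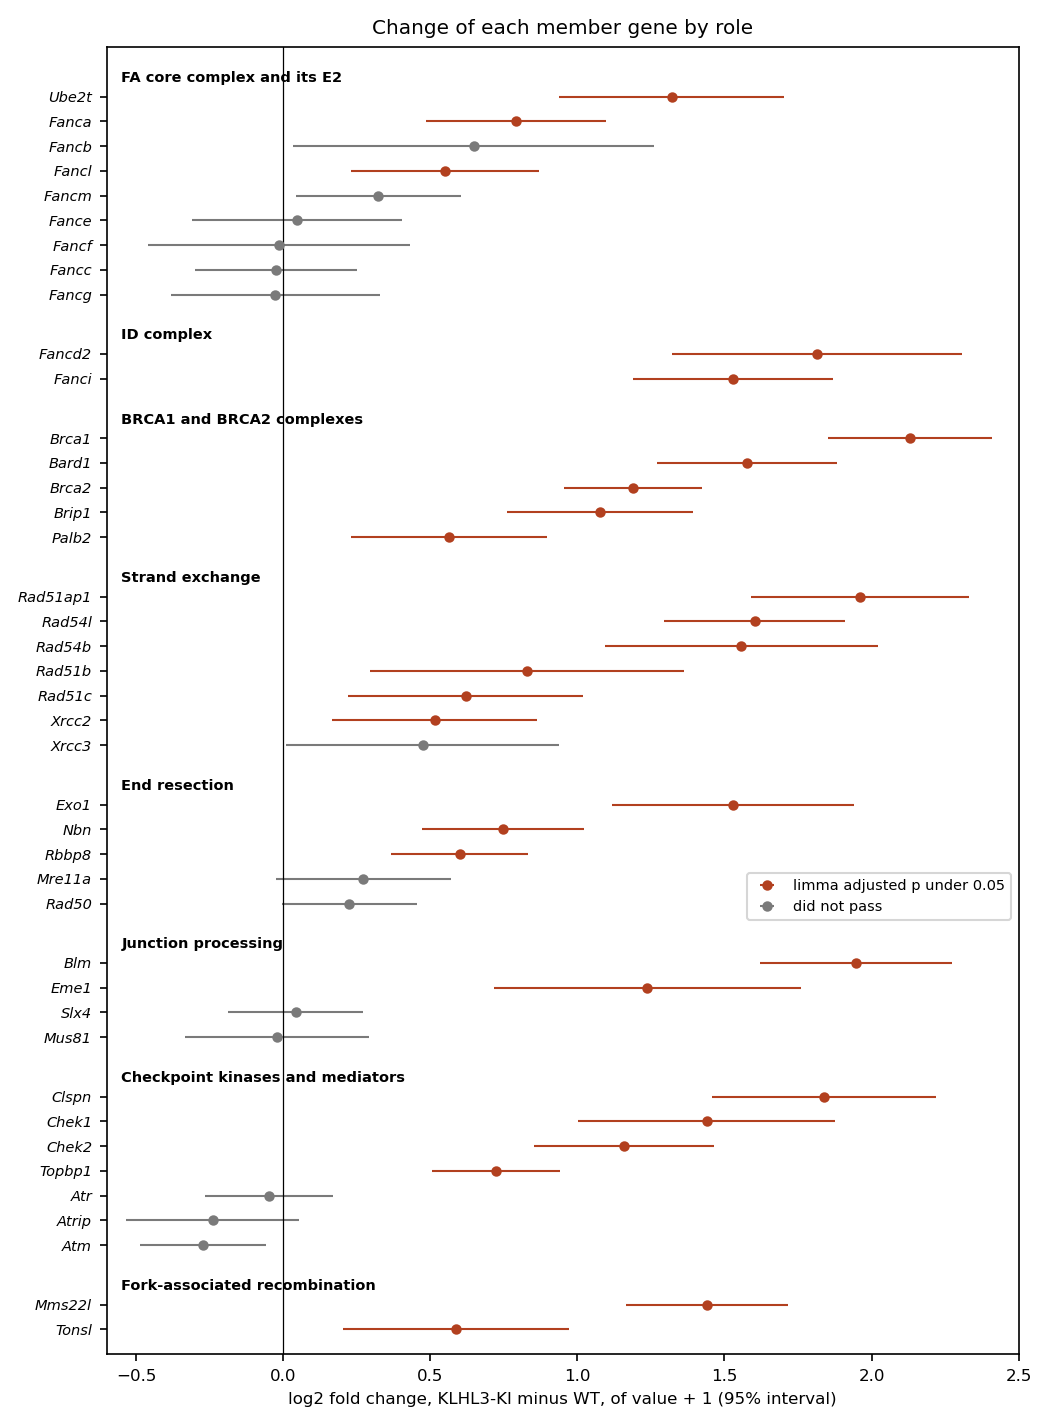
log2 fold change (KLHL3-KI minus WT, of value + 1) of each gene with its 95% interval, by role. Red marks passed the limma test and grey marks did not. The grey marks of all groups lie between -0.27 (Atm) and 0.65 (Fancb), while both genes of the FANCD2-FANCI pair and all 5 genes of the BRCA complexes are red.

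The rest of the pathway was read from 2 further lists. Of 41 tested other Fanconi and recombination genes 13 rose and 0 fell by limma (13 and 0 by edgeR, 11 and 0 by DESeq2, and 18 and 1 at an unadjusted p under 0.05), with a median of 0.29. With equal total reads 6 of them fell, where 18.4% of all genes tested fell. After quantile normalization or with abundant genes removed 5 of them fell, where 14.0% and 17.7% of all genes did. Fignl1, which encodes an AAA ATPase of recombination, rose by 2.03 (SE 0.14). Polq, the polymerase of alternative end joining, rose by 1.81 (SE 0.16) and the junction nuclease gene Gen1 by 1.49 (SE 0.14). Of 32 other checkpoint and break-signalling genes 16 rose and 0 fell (16 and 0 by edgeR, 16 and 0 by DESeq2, and 20 and 0 at an unadjusted p under 0.05), with a median of 0.42. Beside both lists, 15.2% of all genes tested rose and 7.56% fell by limma. With equal total reads or with abundant genes removed 2 of these 32 fell, where 18.4% and 17.7% of all genes did. After quantile normalization 1 fell, against 14.0% of all genes. The histone gene H2afx, whose protein is phosphorylated at breaks, rose by 2.24 (SE 0.12), from 93.0 and 96.1 in WT to 397 and 514. Cdc25c, a phosphatase that opens the way into mitosis, rose by 1.90 (SE 0.17), the crosslink repair nuclease gene Dclre1a by 1.34 (SE 0.13) and the fork protector gene Tipin by 1.42 (SE 0.16). These 7 genes passed in every alternative.

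In the lists of other repair pathways 7.69% to 14.3% of the tested genes rose, against 15.2% of all genes tested, and these counts are a description. The falls of Paxx, Mutyh, Neil1 and Ddb2 given below did not pass with DESeq2 (adjusted p = 0.134, 0.184, 0.201 and 0.137). In non-homologous end joining 1 of 13 tested genes rose (Xrcc6, by 0.57) and 1 fell (Paxx, which fell by 0.64), with a median of -0.04. Both were lost without WT replicate 1 (limma adjusted p = 0.0780 and 0.0769) or WT replicate 2 (0.156 and 0.163), Xrcc6 also without KLHL3-KI replicate 2 (0.108) and Paxx without KLHL3-KI replicate 1 (0.0638). In mismatch repair 1 of 7 rose (Msh6, by 0.65, SE 0.10) and the median was 0.11. In base excision repair 2 of 18 rose, the glycosylase gene Neil3 by 1.71 (SE 0.14) and Apex2 by 0.68 (SE 0.12), and 2 fell, Mutyh (fell by 0.78) and Neil1 (fell by 0.58). The calls of Mutyh and Neil1 were lost without WT replicate 1 (0.0887 and 0.168) or WT replicate 2 (0.139 and 0.121), and that of Neil1 without KLHL3-KI replicate 2 (0.134). In nucleotide excision repair 2 of 18 rose and 1 fell, with a median of 0.02. There, Ddb1, the smaller of the 2 rises, rose by 0.49 and Ddb2 fell by 0.54, and both calls were lost without WT replicate 1 (0.0614 and 0.0901) or WT replicate 2 (0.118 and 0.176), Ddb1 also without KLHL3-KI replicate 2 (0.0602) and Ddb2 without KLHL3-KI replicate 1 (0.0819).

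Genes that p53 switches on after DNA damage, with the gene of p53 itself, were read as a further list. Of 22 tested, 3 rose (13.6%, against 15.2% of all genes tested) and 0 fell by limma (0 fell by edgeR or DESeq2, and 0 at an unadjusted p under 0.05), with a median of 0.11. Gtse1, which is itself active in dividing cells, rose by 1.66 (SE 0.20), Btg2 by 0.45 (SE 0.09) and Sesn2 by 0.58 (SE 0.17). The call of Btg2 was lost without WT replicate 2 and with no variance trend (limma adjusted p = 0.0614). That of Sesn2 was lost without WT replicate 1, WT replicate 2 or KLHL3-KI replicate 2. It was also lost by limma with equal total reads (0.0906), quantile normalization (0.0688), abundant genes removed (0.0582) or no variance trend (0.0862), and with DESeq2 (0.0858). By DESeq2 2 genes of the list rose, where 12.7% of all genes did. Cdkn1a, the cell cycle inhibitor p21, was chosen after its values were seen, at 7.05 and 6.02 in WT against 6.28 and 7.21 in KLHL3-KI spleen, with overlap. Mdm2, the ligase of p53 and likewise chosen, was at 54.6 and 55.6 in WT against 59.8 and 59.9 in KLHL3-KI libraries and did not pass (limma adjusted p = 0.424).

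**Figure D3:**
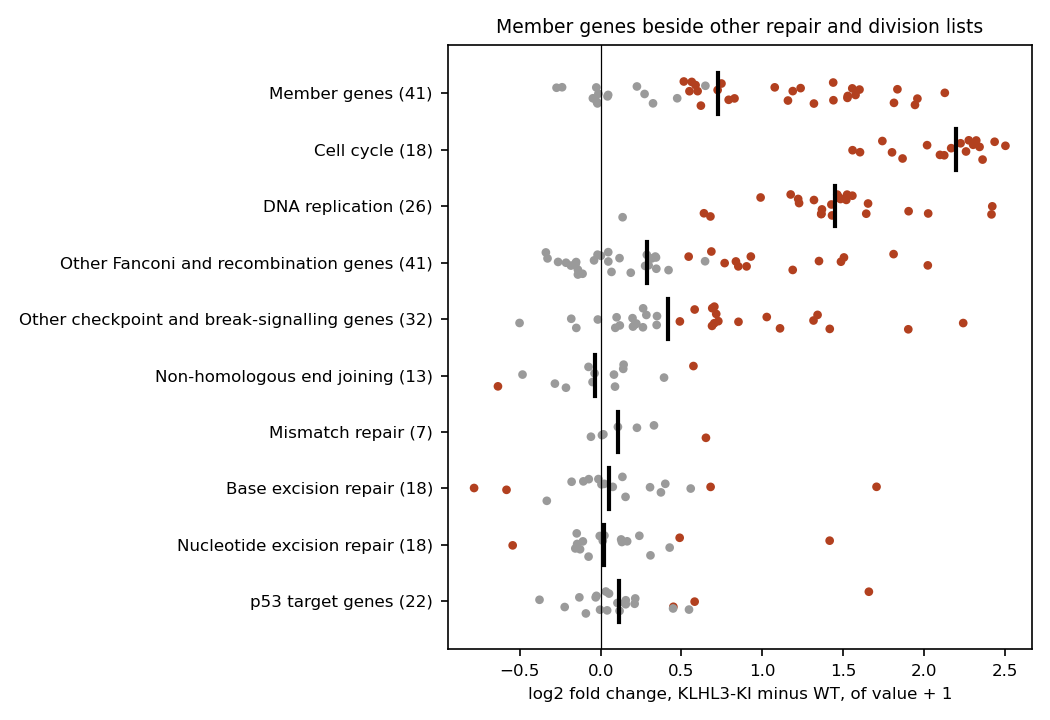
log2 fold change (KLHL3-KI minus WT, of value + 1) of the tested genes of each list, with the number tested in brackets and the median as a black bar. Red points passed the limma test in either direction. The median of the 41 genes is 0.72, between those of the DNA replication (1.45) and cell cycle (2.20) lists above it and those of the other repair lists below it.

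Markers of dividing cells and of other cell types were read beside these genes, and some lists rose while others fell. All 18 cell cycle genes rose (median 2.20), with Mki67 at 450 and 392 in WT against 2167 and 2638 in KLHL3-KI libraries, and 25 of 26 DNA replication genes rose (median 1.45). The summed value of the 41 genes was 970 and 926 in WT against 1478 and 1675 in KLHL3-KI libraries, or 0.102%, 0.0994%, 0.140% and 0.157% of the reads. Divided by the summed value of the replication genes it was 0.805 and 0.859 in WT against 0.498 and 0.464 in KLHL3-KI, and divided by that of the cell cycle genes 0.931 and 1.01 against 0.332 and 0.313. The 41 genes thus rose less in sum than either list in both KLHL3-KI libraries. All 12 red cell precursor markers rose, with a summed value of 2037 and 1598 in WT against 8117 and 9395 in KLHL3-KI, and so did all 11 neutrophil and promyelocyte markers (155 and 70.9 against 1464 and 1987) and all 8 megakaryocyte markers (181 and 185 against 409 and 527). Of 10 B cell markers 9 fell (3538 and 3710 against 2688 and 2045), but 3 did so without WT replicate 2 and 6 without WT replicate 1. All 10 T cell markers fell (561 and 506 against 313 and 279.5), but 8 did so with no variance trend, and not all did so without WT replicate 1. Of 8 markers of germinal centre B cells 4 fell (167 and 162 against 127 and 91.2), and 2 did so when WT replicate 1 or WT replicate 2 was left out. Of 6 red pulp macrophage markers 2 rose (2240.5 and 2035 against 2599 and 2797), but 1 without WT replicate 1 and 0 without WT replicate 2. Of 7 pancreatic acinar genes found only Cela1 passed the minimum level and rose (sums 6.71 and 7.89 against 14.6 and 19.4), and none of 4 tested adipocyte genes passed (21.4 and 18.8 against 15.9 and 26.7). No marker of these lists was at 0 in all libraries, and the part of any cell type in the changes of the 41 genes was not tested.

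The libraries of a group also differed from each other. Of the 41 genes 33 were higher in KLHL3-KI replicate 2 than in KLHL3-KI replicate 1. The same held for 18 of 18 cell cycle genes, 26 of 26 replication genes and 12 of 12 red cell precursor markers, and for 0 of 10 B cell markers. In WT, 27 of the 41 genes were higher in replicate 1 than in replicate 2. So were 14 of 18 cell cycle genes, 23 of 26 replication genes and 12 of 12 red cell precursor markers. For the B cell markers the count was 2 of 10. The shares of all genes tested were not counted for either group, so these counts are a description. Without KLHL3-KI replicate 2 the median log2 fold change of the 41 genes was 0.63, and without replicate 1 it was 0.76. The median of all genes was -0.003 in both fits.

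Of the 41 genes 12 start head to head with another protein-coding gene, with at most 1000 bases between the starts in the GENCODE annotation of GRCm38, and 11 of the partners passed the minimum level. These pairs were chosen after the values were seen. In 8 of the 11 pairs the repair gene had passed the test, in 3 the partner did so, and in 2 both did. Brca1 starts 194 bases from Nbr1, an autophagy receptor gene, which was at 129 and 125 in WT against 156 and 171 in KLHL3-KI libraries. Nbr1 rose by 0.36 (SE 0.09, limma adjusted p = 0.0216). Its call was lost without WT replicate 1 (0.0912), WT replicate 2 (0.146) or KLHL3-KI replicate 2 (0.117), and with equal total reads (0.128), quantile normalization (0.0820) or abundant genes removed (0.0826). The ratio of Brca1 to Nbr1 went from 0.191 and 0.180 in WT to 0.617 and 0.690 in KLHL3-KI spleen. Fancd2 starts 30 bases from Emc3, a membrane protein insertion factor, at 44.8 and 41.8 in WT against 45.9 and 51.8 in KLHL3-KI libraries, which missed the threshold (log2 fold change 0.17, SE 0.11, limma adjusted p = 0.308). Rad54l starts 150 bases from Pomgnt1 (0.07, SE 0.13) and Palb2 56 bases from Dctn5 (-0.06, SE 0.10), neither of which passed (limma adjusted p = 0.740 and 0.733). Zfyve26, 978 bases from Rad51b, was lower in both KLHL3-KI libraries, at 86.3 and 103.7 in WT against 74.8 and 73.9. It missed the threshold (-0.34, SE 0.11, limma adjusted p = 0.0513). It passed with edgeR (0.0397), a replicate block (0.0387), a minimum mean of 5 (0.0457), the 3 scalings that lower the median of all genes (0.00727 to 0.0200) or without WT replicate 1 (0.0480).

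The reverse order was seen at Atm and Topbp1. Npat, an activator of histone genes in S phase that starts 307 bases from Atm, was at 45.4 and 43.4 in WT against 63.2 and 72.5 in KLHL3-KI libraries and rose by 0.60 (SE 0.11, limma adjusted p = 0.00383). This call was lost without WT replicate 2 (0.0569). The ratio of Npat to Atm was 0.319 and 0.337 in WT against 0.556 and 0.659 in KLHL3-KI libraries, higher in both of the latter. 1300017J02Rik, which starts 133 bases from Topbp1, was at 7.72 and 7.06 in WT against 45.4 and 52.1 in KLHL3-KI libraries and rose by 2.57 (SE 0.14, limma adjusted p = 2.59e-06). The difference within a pair was not tested. The 150 bases before the start of Brca1 and of Atm (GRCm38.p6) are shown because each lies between genes whose estimates differ, with the CCAAT letters in capitals.
Brca1, minus strand, chr11:101551956-101552105: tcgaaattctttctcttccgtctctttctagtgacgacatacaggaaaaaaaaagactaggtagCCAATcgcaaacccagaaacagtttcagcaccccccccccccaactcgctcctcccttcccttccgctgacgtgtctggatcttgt
Atm, minus strand, chr9:53536672-53536821: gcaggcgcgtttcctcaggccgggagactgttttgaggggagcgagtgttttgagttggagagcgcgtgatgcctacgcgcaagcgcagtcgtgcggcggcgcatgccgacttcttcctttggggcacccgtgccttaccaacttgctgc
The CCAAT box of Brca1 begins at base -86, and that of Atm at base -165, outside the stretch shown. Neither window held the E2F letters searched.

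**Figure D4:**
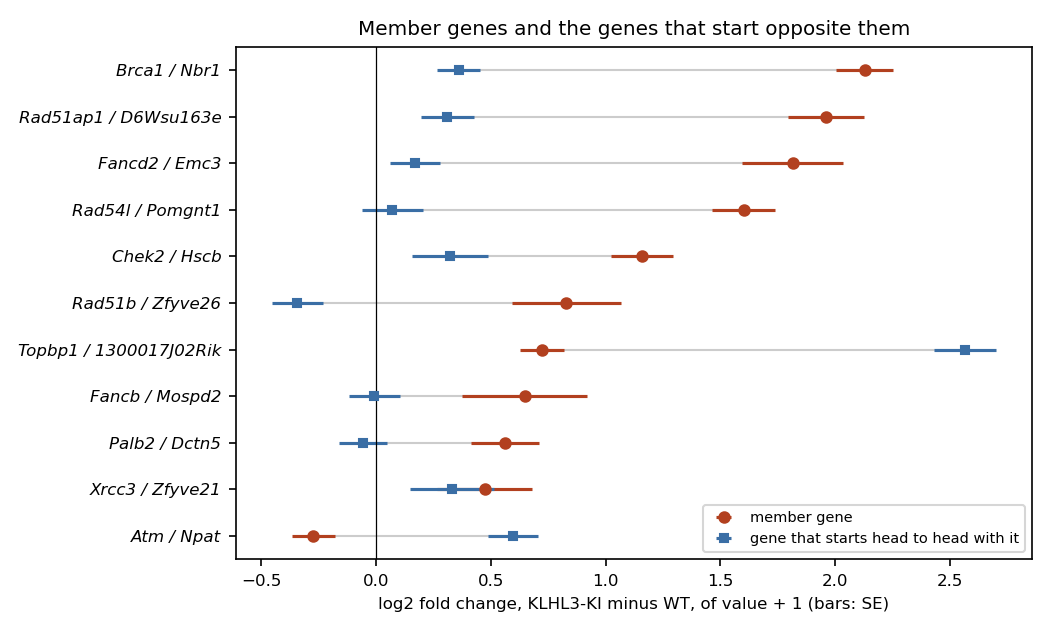
log2 fold change (KLHL3-KI minus WT, of value + 1, bars SE) of 11 member genes (red circles) and of the genes that start head to head with them (blue squares). For Brca1, Rad51ap1, Fancd2 and Rad54l the partner lies between 0.07 and 0.36, while the member gene lies between 1.60 and 2.13. At Topbp1 and Atm the partner lies to the right of the member gene.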

How the data were processed

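Per the labels' protocols, total RNA was isolated with TRIzol, depleted of ribosomal RNA and made into directional libraries. The submitters' processing notes name Trimmomatic 0.38, Bowtie2, RSEM 1.3.0 and edgeR with build GRCm39; for their roles, the annotation and any filter, the sources used here give nothing. The authors deposited 1 table, a normalized signal for each gene in each library. Every value was a whole multiple of what 1 read is worth in its library (100% of values, within 0.001 of a read), so whole reads were recovered, and 1 read was worth 0.0974 to 0.112. Columns were matched to samples by library name. Symbols came from the GENCODE annotation of GRCm38 (23605 of 23763 IDs, 99.3%), which also gave exon lengths and neighbours and no coordinates.

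Genes whose mean value reached 1 were compared on log2(value + 1) with limma 3.58.1 in R 4.3.3 (variance trend, two-sided, Benjamini-Hochberg over all 16970 genes). The scale understates changes of low genes. The precision is limited by the depth and by 2 libraries per group. edgeR 4.0.16 and DESeq2 1.42.0 were run on the recovered reads. The scripts were tested on simulated data. The members and the lists were chosen with earlier results of these data known. The named genes were all members, up to 4 genes per direction with the lowest p of each pathway list, and up to 3 first genes of each marker list. Replicate numbers are shared between groups but the labels do not say that they pair samples. Exon overlaps, gene pairs and promoter letters were added after the values were seen. Some genes of the lists are counted but not reported here by name.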

Additional observations from a re-analysis of the deposited data

How the results depend on the processing

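The count of genes that rose stayed within 1.5 times of 27 in every alternative run, from 20 to 28 when 1 library was left out, and so did those of the other Fanconi and recombination genes (10 to 12 with 1 library left out) and of the other checkpoint and break-signalling genes (13 to 18). The alternatives were pseudocounts of 0.1 and 5, no minimum level and a mean of at least 5, 4 other scalings, no variance trend, edgeR, DESeq2, an adjusted p under 0.01, a replicate block and leaving out each library. The count of genes that fell, 0, became 2 with equal total reads, 1 after quantile normalization and 1 once abundant genes were removed, which lower the median of all genes, and stayed at 0 when any 1 library was left out. Of the single-gene log2 fold changes under alternatives, 588 kept their direction and side of the threshold, 45 lost the threshold, 7 gained it and 14 changed sign, all of the latter in genes that had not passed. Fance turned to -0.0266 (quantile normalization), to -0.1097 for equal total reads and -0.0821 with abundant genes removed, and Slx4 to -0.1141, -0.123 and -0.0934. With 1 library left out, Fancc ranged from -0.0526 to 0.0037, Fance from -0.0968 to 0.1895, Fancf from -0.153 to 0.1243 and Fancg from -0.1398 to 0.0854. Mus81 ranged from -0.1036 to 0.0632 and Atr from -0.0974 to 6.0e-04. With 1 library left, a group is assumed to vary like the other.

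With the replicate number as a block 27 genes rose and 0 fell, and 13 and 16 of the 2 other lists rose. The differences between replicates 1 and 2 correlated across 16970 genes at -0.03 between the groups. Such a value cannot show whether samples of the same number are paired. The block changed no call of the 41 genes. Genes with few reads, such as Rad51b, Rad51c and Fancf, are limited by depth.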
